A study of Arabidopsis thaliana with 27 samples.

Results

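The genes described here are 195 cytochrome P450 genes of Arabidopsis thaliana, out of 34262 genes in the deposited table. They were chosen by name, with earlier results of these data known. Each carries the standard P450 name (CYP, a family number, a subfamily letter and a gene number). Another 39 P450 genes were left out by family or by gene because they belong to indole, glucosinolate, camalexin, triterpene, suberin or hormone pathways (among them CYP79, CYP83, CYP81F, CYP94, CYP707A and CYP735A). The removal was not complete. In the CYP705A and CYP708A subfamilies only CYP705A1, CYP705A5 and CYP708A2 were left out, so any other triterpene genes there remain. Hormone genes remain as well. Genes of brassinosteroid synthesis and inactivation (CYP85A1, CYP85A2, CYP90A1, CYP90B1, CYP90D1, CYP72C1 and CYP734A1), of gibberellin metabolism (CYP714A1, CYP714A2 and CYP72A9) and of strigolactone synthesis (CYP711A1) remain among the 195, as does CYP71B6, which acts on indole-3-acetonitrile, so the set is called here the P450 genes chosen by name. They fall into 37 families and 52 subfamilies, with 126 genes in the CYP71 clan, 24 in the CYP86 clan, 18 in the CYP85 clan, 17 in the CYP72 clan and 10 in clans of a single family.

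RNA from roots of 10-day-old seedlings grown in hydroponic culture was sequenced after poly(A) selection. Indole-3-carbinol (I3C), a compound that crucifers release from an indole glucosinolate when tissue is damaged, was given for 2 h at 200 or 400 µM, with its solvent DMSO as the control. In the line labelled ICT1-2, a homozygous line of an s30 transgene made in the submitters' laboratory under the s35 promoter, roots received DMSO, 200 µM I3C or 400 µM I3C. In the line labelled ICT1-8098, a homozygous line with s30 overexpression from the FOX overexpression library, roots received 200 µM I3C or DMSO. Col-0, the wild type, was wounded or received DMSO, 200 µM I3C or 400 µM I3C. Wounding meant 3 wounds to each leaf and harvest of the roots 8 h later, so the wounded roots and the 2 h DMSO roots differ in time as well as in treatment, and time and wounding cannot be told apart. Each group had 3 libraries in the table except DMSO-treated ICT1-2, which had 2, giving 26 libraries in 9 groups. The labels give 20 seedlings per treatment and do not say whether libraries of a group came from separate cultures, so the p-values measure the spread between these libraries, which may be technical. Both are labelled as s30 overexpression with the s35 promoter, each is 1 homozygous line, and a difference between a line and Col-0 belongs to that line.

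Cytochrome P450s are heme enzymes, most of them anchored in the endoplasmic reticulum, that insert an oxygen atom into a substrate with electrons passed on by NADPH-cytochrome P450 reductase or cytochrome b5. In plants they form one of the largest enzyme families. The CYP71 clan holds many genes of specialized metabolism, while conserved enzymes of sterol, lignin, fatty acid, carotenoid and hormone metabolism are spread over all clans. Some, CYP81D8 and CYP81D11 among them, are widely used as markers of the response to xenobiotics and reactive electrophiles, in which class II TGA transcription factors bind promoters with the core sequence TGACG. WRKY factors bind the core TTGAC, and bHLH factors of the MYC group bind CACGTG.

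The promoters of 4 P450 genes with some of the largest rises under I3C are shown because these genes moved together in every I3C comparison below. Each is the 250 bases before the annotated start, read 5′ to 3′ on the gene's strand from RefSeq's TAIR10.1 genome (gene coordinates below are on the same assembly), and capitals mark TGACG or TTGAC on either strand (CGTCA and GTCAA are the reverse complements, and the motifs can share the letters TGAC). The CYP81D8 window is chr4:17571744-17571993 on the minus strand, that of CYP81D11 is chr3:10790554-10790803 on the minus strand, that of CYP89A5 is chr1:24127256-24127505 on the plus strand and that of CYP72A8 is chr3:4914539-4914788 on the plus strand.
CYP81D8: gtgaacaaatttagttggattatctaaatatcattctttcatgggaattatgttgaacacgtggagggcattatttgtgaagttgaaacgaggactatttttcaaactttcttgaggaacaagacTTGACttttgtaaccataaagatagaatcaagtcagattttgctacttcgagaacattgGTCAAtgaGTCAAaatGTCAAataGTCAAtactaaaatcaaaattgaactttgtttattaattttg
CYP81D11: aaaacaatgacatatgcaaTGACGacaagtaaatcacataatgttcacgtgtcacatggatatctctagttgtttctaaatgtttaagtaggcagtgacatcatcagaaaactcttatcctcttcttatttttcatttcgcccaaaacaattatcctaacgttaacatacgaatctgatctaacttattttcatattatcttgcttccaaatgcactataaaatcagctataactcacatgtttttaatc
CYP89A5: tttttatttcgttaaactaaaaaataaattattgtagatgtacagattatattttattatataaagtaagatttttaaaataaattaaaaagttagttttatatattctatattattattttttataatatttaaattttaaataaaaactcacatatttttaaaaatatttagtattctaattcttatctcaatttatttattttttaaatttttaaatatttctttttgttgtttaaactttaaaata
CYP72A8: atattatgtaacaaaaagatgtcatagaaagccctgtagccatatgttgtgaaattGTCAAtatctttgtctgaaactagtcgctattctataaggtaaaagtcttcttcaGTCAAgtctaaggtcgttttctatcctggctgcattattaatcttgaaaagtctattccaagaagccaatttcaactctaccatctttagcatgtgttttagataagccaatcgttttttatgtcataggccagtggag

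The CYP81D8 window held 5 TTGAC matches and no TGACG, and the CYP81D11 window held 1 TGACG and no TTGAC. The CYP72A8 window held 2 TTGAC matches, and the CYP89A5 window held neither motif. TTGAC was found in 65.4% of the 26 P450 promoters whose genes rose at 200 µM I3C in Col-0 roots, in 44.1% of the 34 whose genes fell, in 48% of the 75 tested and not called, and in 44.9% of 27419 promoters of the same length. TGACG was found in 23.1% of the promoters of genes that rose and 11.8% of those that fell, against 18.6% of all promoters. CACGTG was found in 11.5% and 5.88%, against 6.48% of all promoters. CATGTG was found in 23.6% of all 195 promoters, against 11.1% of all promoters, with 26.9% in the genes that rose and 23.5% in those that fell. The heat shock element was in none of the 195 windows and in 0.387% of all promoters. These shares describe the letters in the windows and were not tested.

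Total reads per library ran between 9503924 (200 µM I3C in Col-0, replicate 4) and 19433428, with a median of 14169035.5, and Spearman's correlation between libraries of a group was 0.962 to 0.991. Values below are normalized counts, reads divided by the library's size factor, and 3 reads correspond to 0.154 to 0.316 CPM. The table names 3 loci of ribosomal protein S30 RPS30A. AT2G19750 had 5743 ± 821 normalized counts in DMSO-treated ICT1-8098 and 2429 ± 540 in DMSO-treated ICT1-2, against 2659 ± 728 in DMSO-treated Col-0 (SD, n = 3, 2 and 3; log2 fold changes 1.13, limma adjusted p = 0.000649, and -0.11, adjusted p = 0.796), and the other loci were not called in either line: AT5G56670 had 5531 ± 523 in ICT1-8098 and 5787 ± 751 in ICT1-2, against 6089 ± 338 in Col-0, and AT4G29390 had 889 ± 119 and 958 ± 125, against 1183 ± 126. The libraries labelled ICT1-2 thus did not show at any of these loci the overexpression that their label names. All 10 root markers and all 6 shoot photosynthesis markers had reads in every group. The summed level of the root markers was 27739 to 47523 at 200 µM I3C and 60784 to 74199 with DMSO in Col-0, and in wounded Col-0 it was 85793 to 122364. With wounding no root marker was called and their median log2 fold change was -0.21, so the higher sum does not stand for the markers as a set. At 200 µM in Col-0, 3 of 10 root markers (PHO1, IRT1 and NRT2.1) fell and none rose. That is 30% called, near the 28.9% of all genes called in either direction (13.9% lower). The summed shoot markers were 2265 to 7325 at 200 µM and 1546 to 3915 with DMSO in Col-0. Their part in the P450 results was not tested, and in bulk roots fewer cells of a type cannot be told apart from less RNA per cell.

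Of the 195 P450 genes, 135 passed the filter of 10 normalized counts in 3 libraries and were tested, and 60 were not. Reads were absent from every library for 7 genes (CYP71B32, CYP76C7, CYP77A4, CYP86C2, CYP96A10, CYP96A3 and CYP98A8). Another 8 reached 10 normalized counts in 1 or 2 libraries, and none of the 60 exceeded 20.04 normalized counts in any library. The CYP86 clan had the smallest share tested, 10 of 24. Some of its untested genes have known roles outside roots. CYP96A15, the midchain alkane hydroxylase of stem wax, had 16 reads over all 26 libraries, and CYP704B1 of pollen wall synthesis had 6. In the CYP71 clan, CYP77A6 of flower cutin had 98 reads and CYP703A2 of pollen wall synthesis had 4. CYP82G1, which makes volatile homoterpenes, had 1 read.

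Per kilobase of exon and averaged over all libraries, CYP72A13 had the highest level, 1414 normalized counts per kb. CYP51G1, the obtusifoliol 14-demethylase of sterol synthesis, followed with 1139.9 and CYP71B6 with 1015. CYP81D11 had 963 per kb, CYP98A3, the 3'-hydroxylase of coumaroyl shikimate in lignin synthesis, had 960.03 and CYP81D8 had 839. In the CYP86 clan the highest levels per kb were 355 for CYP704A2 and 236 for CYP86A8 (LACERATA, a fatty acid omega-hydroxylase). In the CYP85 clan they were 291 for CYP90A1 and 209 for CYP85A2, both of brassinosteroid synthesis. CYP51G1 shows what an even level looked like, with 2035, 3293 and 3269 normalized counts at 200 µM I3C and 3096, 2948 and 2535 with DMSO in Col-0. The groups overlapped (log2 fold change -0.03, limma adjusted p = 0.934).

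At 200 µM I3C in Col-0 roots, 26 P450 genes rose and 34 fell out of 135 tested, which is 44.4%. Among all 21180 genes tested, 28.9% were called, 15% higher and 13.9% lower. The median log2 fold change of the tested P450 genes was -0.31, against -0.03 over all genes, and 25 of the rises and 26 of the falls exceeded 1 on the log2 scale. With libraries scaled by total reads instead, 22 P450 genes rose and 49 fell, and the median of all genes was then -0.34. In the CYP71 clan 18 rose and 24 fell of 87 tested, and in the CYP72 clan 6 rose and 3 fell of 15. In the CYP86 clan 1 rose and 3 fell of 10, in the CYP85 clan none rose and 3 fell of 14, and in the single-family clans 1 rose and 1 fell of 9.

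Calls followed subfamilies unevenly, beside 44.4% of all tested P450 genes and 28.9% of all genes called in either direction. CYP89A had 4 rises and 1 fall among 5 tested, with a median log2 fold change of 2.63, and CYP72A had 4 rises and 1 fall among 8, with a median of 1.14. CYP705A, a large subfamily found in gene clusters, had no rise and 11 falls among 20 tested, with a median of -0.84, and CYP702A had 2 falls among 4, with a median of -1.81. The 20 include CYP705A8, CYP705A13 and CYP705A28, which were near zero in Col-0 (medians 3.71, 0 and 3.53 normalized counts) and well expressed in the lines. CYP705A8 is counted among the 11 falls, and its call rests on few reads. CYP71B split into 5 rises and 4 falls among 20, near the share called of all tested P450 genes, and CYP81D into 3 and 3 among 7. The remaining subfamilies with 3 or more tested genes had no more than 2 calls in either direction.

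**Figure D1:**
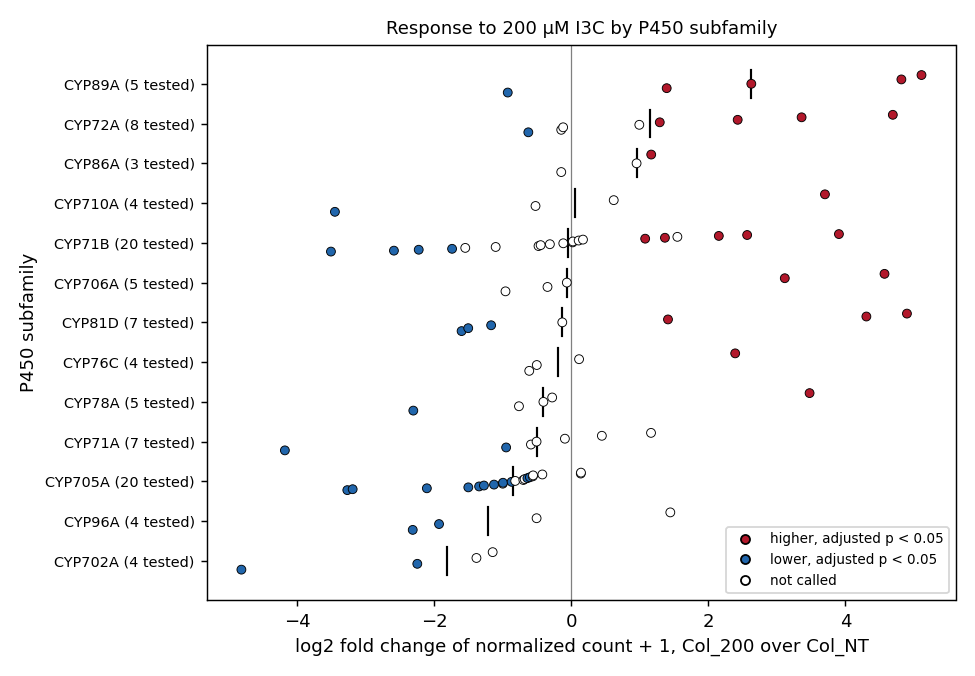
Log2 fold change of normalized count + 1 at 200 µM I3C over DMSO in Col-0 roots (x axis), 1 point per tested P450 gene, for subfamilies with at least 3 tested genes (y axis, ordered by median). Red points were called higher, blue lower and white not called, and the black bar is the median; CYP89A (median 2.63) and CYP72A (1.14) lie at one end, CYP705A (-0.84) and CYP702A (-1.81) towards the other.

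Markers of the xenobiotic response were among the strongest rises. CYP81D8 (AT4G37370, chr4:17569740-17571743) had 2502, 5183 and 3288 normalized counts at 200 µM I3C, against 120.3, 224 and 201.1 with DMSO. The lowest treated library was several fold above the highest DMSO library, and the ratio of means was 20.1 (log2 fold change 4.31, SE 0.30, limma adjusted p = 1.03e-10). CYP81D11 (AT3G28740, chr3:10788698-10790553), also induced by the plant volatile cis-jasmone, had 2711, 4123 and 2795 at 200 µM, against 139, 114 and 72 with DMSO. Again no treated library came near a DMSO library, and the ratio was 29.6 (4.90, SE 0.38, adjusted p = 8.5e-10). Both genes belong to a subfamily in which 3 others fell: CYP81D3 had 105, 49.8 and 52 at 200 µM, against 164, 232 and 206 with DMSO (-1.60, adjusted p = 0.000585), CYP81D5 fell by 1.50 on the log2 scale (adjusted p = 0.000135), and CYP81D1 had a log2 fold change of -1.17 whose call depended on single libraries (adjusted p 0.0368 with all libraries, and 0.253 without DMSO replicate 3, 0.16 without 200 µM replicate 4 and 0.0952 without 200 µM replicate 1).

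The CYP89A genes on chromosome 1 rose together. CYP89A5 (AT1G64950, chr1:24127506-24129557) had 597, 999 and 622 normalized counts at 200 µM, against 19.8, 15.5 and 25.5 with DMSO, a ratio of 36.5 and the largest log2 fold change among the 135 (5.11, SE 0.25, adjusted p = 3.2e-13). CYP89A6 (AT1G64940, chr1:24123789-24125514), its neighbour, had 228, 338 and 299.7, against 5.77, 12.4 and 10.5 (4.82, SE 0.41, adjusted p = 3.37e-09). The third neighbour, CYP89A7, had 45.4, 86.8 and 39.9, against 14, 7.73 and 4.39 (2.63, adjusted p = 0.000197). In each of these 3 genes the treated and DMSO libraries were far apart, and the lowest treated value was above the highest DMSO value. CYP89A2, outside this array, had 144, 157 and 254, against 49.4, 92 and 67.6 (1.39, adjusted p = 0.00108). CYP89A9, which acts on breakdown products of chlorophyll, moved the other way with a log2 fold change of -0.93 (adjusted p = 0.0372, and 0.253 without 200 µM replicate 5, 0.11 without DMSO replicate 5 and 0.0923 without DMSO replicate 3).

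The CYP72A cluster on chromosome 3 held 4 rises. CYP72A13 (chr3:4924777-4927607) had 4846, 6739 and 5796 normalized counts at 200 µM, against 835, 492 and 422 with DMSO (3.36, SE 0.28, adjusted p = 2.47e-09). CYP72A8 (AT3G14620, chr3:4914789-4917176) had 2325, 3387 and 2601, against 143, 81.1 and 99.2 (4.69, SE 0.39, adjusted p = 2.62e-09). CYP72A15 had 1742, 2097 and 2022, against 438, 328 and 327 (2.43, SE 0.18, adjusted p = 4.27e-10). For these 3 genes each treated library was several fold above the highest DMSO library. CYP72A9, a gibberellin 13-hydroxylase, had 44.3, 36.9 and 21.8 at 200 µM and 11.5, 12.4 and 14.9 with DMSO, which did not overlap (1.29, adjusted p = 0.00957, but 0.0747 when only these groups were fitted and 0.0719 with voom on the recovered reads).

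Smaller clusters and single genes completed the list of 10 largest rises. CYP706A2 (chr4:11934969-11936823) had 237, 724 and 633 normalized counts at 200 µM, against 12.4, 13.1 and 42.2 with DMSO (4.57, SE 0.65, adjusted p = 7.34e-06), and its neighbour CYP706A1 had 957, 2429 and 2521, against 250.5, 145 and 244 (3.12, SE 0.55, adjusted p = 0.000116). In both, replicate 1 at 200 µM was the lowest treated library and still above all DMSO libraries. CYP71B10 (chr5:23198589-23200318) had 129, 107 and 71.3, against 3.3, 4.64 and 11.4 (3.91, SE 0.61, adjusted p = 2.61e-05). CYP710A1 (chr2:14539373-14541617), the sterol C22-desaturase that makes stigmasterol, had 284, 729 and 806, against 43.7, 37.1 and 43.9 (3.70, SE 0.48, adjusted p = 2.19e-06). CYP78A10 had few reads, with 8.65, 44.3 and 35 at 200 µM and 0.82, 0 and 5.27 with DMSO (3.48, SE 0.83, adjusted p = 0.00256), and its estimate ran between 2.89 without DMSO replicate 4 and 4.22 without DMSO replicate 5. CYP71B6, which converts indole-3-acetonitrile had 2347, 3042 and 2507, against 1065, 1447 and 1231 (1.08, adjusted p = 0.00257).

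**Figure D2:**
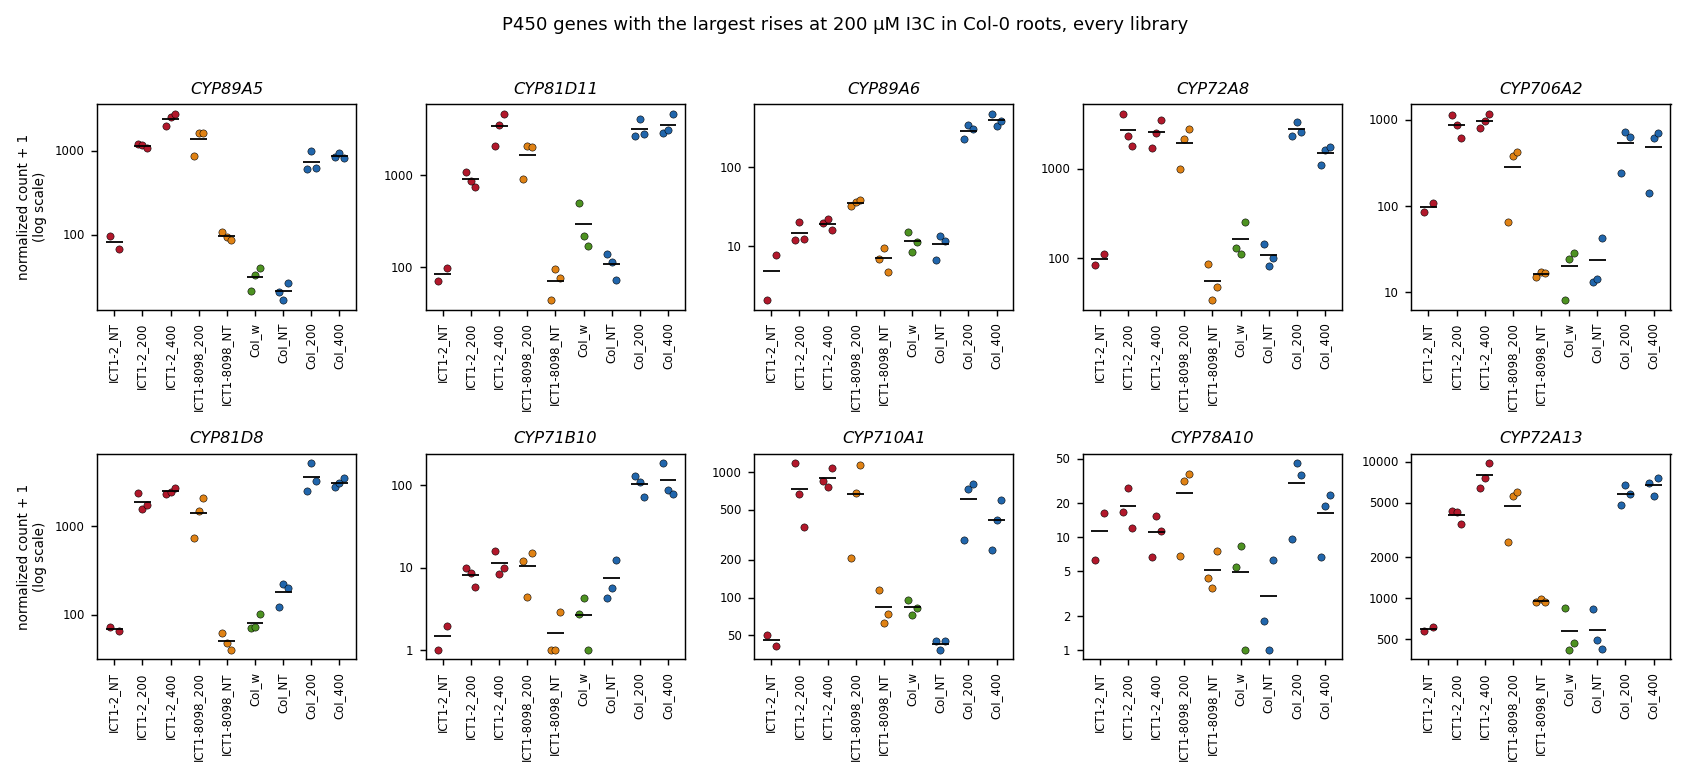
Normalized count + 1 (log y axis) in each library of the 9 groups (x axis) for the 10 P450 genes with the largest rises at 200 µM I3C in Col-0; points are libraries, black bars are group means, NT is DMSO, w is wounding and 200 and 400 are µM of I3C. For CYP81D8 the Col-0 libraries at 200 µM lie between 2502 and 5183 and those with DMSO between 120.3 and 224, while CYP89A6 and CYP71B10 stay lower in I3C-treated libraries of both lines than in those of Col-0.

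Replicates did not contribute evenly. Of the 14 genes that rose in each I3C comparison, replicate 1 at 200 µM in Col-0 was the lowest of its group in 11 and replicate 4 was the highest in 11. Of the 13 that fell in each, replicate 5 at 200 µM in Col-0 was the lowest in 11. Among the 14 that rose, replicate 2 at 200 µM in ICT1-8098 was the lowest in 12 and replicate 4 the highest in 10. At 200 µM in ICT1-2 replicate 2 was the highest in 11 of the 14 and replicate 5 the lowest in 10. These counts were not made over all genes, so they do not describe the P450 genes alone.

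Phenylpropanoid and sterol enzymes did not move as one. CYP98A3, the 3'-hydroxylase on the way to guaiacyl lignin, had 2458, 2865 and 1879 normalized counts at 200 µM, against 1032, 1622 and 1327 with DMSO (0.86, SE 0.17, adjusted p = 0.000512). CYP84A1, the ferulate 5-hydroxylase of syringyl lignin, had 139, 86.8 and 43.5, against 365, 291 and 268 (-1.90, SE 0.48, adjusted p = 0.00377). The treated libraries lay above the DMSO libraries for CYP98A3 and below them for CYP84A1. CYP75B1, the flavonoid 3'-hydroxylase, was not called (-0.72, adjusted p = 0.229). Of the sterol desaturase subfamily CYP710A, CYP710A1 rose as above, while CYP710A3 had 3.24, 5.54 and 0 at 200 µM, against 36.2, 33.2 and 27.2 with DMSO (-3.45, SE 0.81, adjusted p = 0.00229, and -2.65 without 200 µM replicate 5). CYP710A2 had 99.5, 77.5 and 36.2, against 69.2, 121 and 100.1, and the groups overlapped.

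Hormone enzymes in the set also moved in different directions. CYP72C1, which inactivates brassinosteroids, had 291, 338 and 282 normalized counts at 200 µM, against 74.2, 60.3 and 91.3 with DMSO (2.01, SE 0.19, adjusted p = 1.85e-08). CYP90D1, of brassinosteroid synthesis, had 109, 64.6 and 64, against 400.4, 146 and 242 (-1.64, SE 0.32, adjusted p = 0.000376). In both the groups lay apart. The other enzymes of brassinosteroid synthesis were not called: CYP90A1 had a log2 fold change of 0.41 (adjusted p = 0.334), CYP90B1 of -0.22 (adjusted p = 0.541) and CYP85A1 of -0.20. CYP734A1, a further brassinosteroid-inactivating enzyme, had 0.50 (adjusted p = 0.102). CYP714A1 (chr5:8567504-8570367), which inactivates gibberellins, had 9.73, 0 and 0 at 200 µM, against 39.5, 63.4 and 65.9 (-4.66, SE 0.65, adjusted p = 5.19e-06, and -5.80 without 200 µM replicate 1), while its relative CYP714A2 was not called (0.09). CYP711A1 (MAX1) of strigolactone synthesis had 427, 260.3 and 164, against 456, 311 and 394, with overlapping groups (-0.54, adjusted p = 0.0743).

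Among the deepest falls at 200 µM, beside those of CYP714A1 and CYP710A3 above, were genes of the CYP702A, CYP705A, CYP71A and CYP71B subfamilies. CYP702A5 (chr4:8804070-8807232) had 10.8, 12.9 and 7.25 normalized counts, against 317, 298 and 315 with DMSO, so that the DMSO mean was 30.02 times the 200 µM mean (-4.81, SE 0.43, adjusted p = 7.14e-09). CYP71A20 (chr4:7750305-7753210) had 13, 11.1 and 3.63, against 339, 134 and 100.1 (-4.18, SE 0.46, adjusted p = 1.81e-07). In both, the highest treated library was under the lowest DMSO library by several fold. CYP71B9 had 6.49, 0 and 2.42, against 34.6, 36.3 and 27.2 (-3.51, SE 0.56, adjusted p = 3.13e-05, with a range of -4.18 to -2.73 without 1 library of its treated group), and CYP71B26 had 32.4, 35.1 and 15.7, against 165, 158 and 164 (-2.59, SE 0.45, adjusted p = 0.000101). CYP704A2, of the fatty acid hydroxylase clan CYP86, fell by 1.004 on the log2 scale, with 475, 487 and 302, against 971, 760.4 and 767 (adjusted p = 7.75e-05).

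Within CYP705A the falls differed in depth. CYP705A4 had 48.6, 40.6 and 23 normalized counts at 200 µM, against 267, 407 and 402 with DMSO (-3.27, SE 0.40, adjusted p = 1.05e-06). CYP705A6 had 8.65, 0 and 7.25, against 31.3, 53.3 and 33.4 (-3.19, SE 0.63, adjusted p = 0.000371, and -2.14 without 200 µM replicate 4). CYP705A15 had 279, 273 and 247, against 702, 694 and 635 (-1.34, SE 0.15, adjusted p = 1.96e-07). In these 3 genes the groups did not overlap, and the libraries of CYP705A15 were within a narrow band in each group. CYP705A20 and CYP705A18 fell by 2.11 and 1.27 on the log2 scale (adjusted p = 2.52e-06 and 5.57e-07).

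The other genes among the 10 largest falls were less stable. CYP96A8 had 25.9, 3.69 and 1.21 normalized counts at 200 µM, against 28.8, 33.2 and 32.5 with DMSO (-2.31, adjusted p = 0.0299). Its call was lost without 200 µM replicate 4 (0.106) or 5 (0.186), without DMSO replicate 3 (0.059), 4 (0.0737) or 5 (0.0705), and when only these groups were fitted (0.0909). CYP78A6 had 2.16, 5.54 and 47.1, against 51.9, 58.7 and 36.9, and the groups overlapped through replicate 5 at 200 µM (-2.30, adjusted p = 0.0173). Its call was lost without 200 µM replicate 1 (0.113) or 4 (0.0815), without DMSO replicate 4 (0.059), with only these groups (0.102) and with the replicate block (0.0714). At 400 µM CYP78A6 had 3.82, 6.97 and 2.87, below all DMSO libraries (-3.22, adjusted p = 0.00108).

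Of the 195 genes, 114 lie in 33 arrays with no more than 1 gene between neighbours, and 81 lie alone. In 3 arrays both directions were called at 200 µM in Col-0. The CYP72A array (chr3:4912324-4939871) held 4 rises (CYP72A8, CYP72A9, CYP72A13 and CYP72A15), 1 fall (CYP72A14, adjusted p = 0.0145, lost without 200 µM replicate 1 at 0.0769, replicate 4 at 0.0603 or DMSO replicate 3 at 0.076) and 3 genes not called. The array at chr4:17555899-17571743 held the rise of CYP81D8 beside falls of CYP81D5 and CYP81D3, and the CYP71B array at chr3:9627562-9648658 held 1 rise (CYP71B34, lost without 200 µM replicate 4, adjusted p = 0.0748) and 2 falls (CYP71B26 and CYP71B37) among 7 genes. Rises without a fall came from CYP89A7, CYP89A6 and CYP89A5 (chr1:24120723-24129557) and from CYP706A1 and CYP706A2 (chr4:11929359-11936823). Falls without a rise came from 5 of 7 CYP705A genes at chr3:7007869-7030897, from CYP702A5, CYP702A6 and CYP705A4 among 5 genes at chr4:8762832-8810512, and from CYP705A25 and CYP705A27 at chr1:18719378-18726272. Calls lost without 1 library in these arrays were those of CYP702A6 (highest adjusted p 0.17 without 200 µM replicate 5), CYP705A25 (0.147 without DMSO replicate 5), CYP705A21 (0.14 without 200 µM replicate 4) and CYP705A22 (0.0777 without 200 µM replicate 5).

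Near-identical neighbours can share reads. Of the exon sequence cut into overlapping 50-base words, 122 of the 195 genes had no word found elsewhere in the genome and 14 had more than 10%. The share was 60.4% for CYP706A2, 46.6% for CYP706A1, 31.1% for CYP89A5 and 16% for CYP89A6, so the split of reads between these neighbours is uncertain. It was 19.4% for CYP710A3 and 17.9% for CYP710A4. No word was shared for CYP81D8, CYP81D11, CYP72A8, CYP71B10 or CYP71B35. The library kit does not mark strand, so reads of overlapping antisense genes cannot be told apart from those of the P450 gene.

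At 400 µM I3C in Col-0 roots, 31 P450 genes rose and 40 fell of 135 tested, or 52.6%, against 35.8% of all genes (18.4% higher and 17.4% lower). The median log2 fold change was -0.29, against -0.06 over all genes. The comparisons at both doses share the DMSO libraries. At 400 µM 4 of 10 root markers were lower and their summed level was 21517 to 36052, and their part in the result was not tested. CYP89A5 had 845, 945 and 818 normalized counts at 400 µM, against 19.8, 15.5 and 25.5 with DMSO (5.38, adjusted p = 1.08e-13), and CYP81D11 had 2914, 3125 and 4699, against 139, 114 and 72 (5.05, adjusted p = 3.84e-10). CYP76C2, an oxidase of monoterpenols, had 29.6, 29.3 and 21.5 at 400 µM and 0, 0.77 and 0.88 with DMSO, too few reads with DMSO for a fold change. CYP81G1 had 15.3, 8.36 and 14.3 at 400 µM and no reads in any DMSO library. Of the carotenoid hydroxylase family, CYP97B3 had 359, 389 and 409, against 259.5, 210.2 and 263 (0.66, adjusted p = 8.6e-05), and CYP85A2, of brassinosteroid synthesis, had 562, 578 and 416, against 270.2, 244 and 284 (0.95, adjusted p = 0.000806).

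Falls at 400 µM included genes that also fell at 200 µM, in comparisons that share the DMSO libraries. CYP710A3 had 0.95, 0 and 0 normalized counts, against 36.2, 33.2 and 27.2 with DMSO, so its 400 µM group held almost no reads. CYP71A20 had 2.86, 12.5 and 8.61, against 339, 134 and 100.1 (-4.39, adjusted p = 6.67e-08), and CYP702A5 had 13.4, 47.4 and 8.61, against 317, 298 and 315 (-4.05, adjusted p = 8.95e-08). The call of CYP702A6 (5.73, 6.97 and 0, against 27.2, 25.5 and 25.5) was lost without 400 µM replicate 5 (adjusted p = 0.00536 with it and 0.0587 without), as was that of CYP714A1 (0.0118 and 0.0757).

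Set directly against each other, 400 and 200 µM gave no P450 gene past the threshold in limma, against 0.123% of all genes (0.0897% higher and 0.0331% lower), with 15 P450 genes at an unadjusted p under 0.05 and none by voom. Without 200 µM replicate 1 there were 3 calls, and without 400 µM replicate 1 there was 1. The 400 over 200 µM difference on the log2 scale was -0.16 for CYP81D8 (95% confidence interval -0.78 to 0.46), 0.15 for CYP81D11 (-0.65 to 0.95) and 0.27 for CYP89A5 (-0.26 to 0.80). Intervals of this width do not show that the doses gave the same level. CYP72A8 had 81.1 to 143 normalized counts with DMSO, 2325 to 3387 at 200 µM and 1097 to 1771 at 400 µM, with a difference of -0.90 (-1.71 to -0.08, adjusted p = 0.38). CYP72C1 had 60.3 to 91.3 with DMSO, 282 to 338 at 200 µM and 412 to 529 at 400 µM, the libraries of each step lying above those of the step before (0.63 for 400 over 200 µM, 0.24 to 1.03, adjusted p = 0.196).

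P450 genes were also called under I3C in both lines. In ICT1-2 roots 19 rose and 22 fell at 200 µM (30.4%, against 18.6% of all genes, 11.8% higher and 6.76% lower), and 21 rose and 25 fell at 400 µM (34.1%, against 31.4%, 17.6% higher and 13.7% lower). At 400 µM in ICT1-2 the share called was near that of all genes. By direction, 15.6% of the tested P450 genes were higher there and 18.5% lower. With scaling by total reads the 400 µM split became 19 rises and 44 falls. In ICT1-8098 roots 23 rose and 28 fell at 200 µM (37.8%, against 22.1%, 14.2% higher and 7.97% lower). The medians were -0.23, -0.27 and -0.21, against -0.03, -0.07 and -0.04 over all genes. The ICT1-2 count at 200 µM fell to 26 without DMSO replicate 1 and 24 without DMSO replicate 2 of that line. The shoot photosynthesis markers summed to 546 to 716 at 200 µM and 2217 to 2222 with DMSO in ICT1-2, with 6 of 6 lower. They summed to 736 to 1117 at 400 µM in ICT1-2, with 3 of 6 lower, and to 549 to 589 at 200 µM in ICT1-8098, against 887 to 1193 with DMSO, with 1 of 6 lower. Of the root markers, 4 and 2 of 10 were lower at 200 and 400 µM in ICT1-2 and 4 of 10 in ICT1-8098. The part of these markers in the result was not tested.

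Over the 5 I3C comparisons, of which those within Col-0 and within ICT1-2 share DMSO libraries, 14 P450 genes were called higher in each (10.4% of those tested, against 7.91% of all genes) and 13 lower in each (9.63%, against 2.28%). Another 53 were called in none (39.3%, against 46.8%), and 1 (CYP71B2) was higher in one and lower in another. CYP81D8 in ICT1-2 had 71.8 and 64.1 normalized counts with DMSO, 2380.2, 1597 and 1749 at 200 µM and 2358, 2452 and 2736 at 400 µM. In ICT1-8098 it had 736, 1478 and 2089 at 200 µM, against 61.6, 46.4 and 38.5. Treated libraries of both lines stood several fold above the DMSO libraries, and the log2 fold changes were 4.77, 5.19 and 4.75. CYP72A8 had 4138, 2323 and 1792 at 200 µM in ICT1-2, against 83.6 and 109.7, and 986, 2159.8 and 2771 in ICT1-8098, against 84.1, 32.7 and 47 (4.74 and 5.13).

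The others that rose in each comparison were CYP81D11, CYP89A5, CYP89A6, CYP72A13, CYP72A15, CYP706A1, CYP706A2, CYP710A1, CYP71B6, CYP71B10, CYP72C1 and CYP98A3. Their log2 fold changes over the 5 comparisons ran, for example, between 3.78 and 5.38 for CYP89A5, between 2.21 and 3.73 for CYP72A13 and between 0.62 and 1.40 for CYP98A3. Not all of these calls hold without 1 library: at 200 µM in ICT1-2, those of CYP71B10 (adjusted p = 0.145 without DMSO replicate 1), CYP89A6 (0.269 without DMSO replicate 1), CYP98A3 (0.0588 without DMSO replicate 2) and CYP72C1 (0.0976 without DMSO replicate 2) are lost. In ICT1-8098 that of CYP98A3 is lost without 200 µM replicate 3 (0.0729) or 4 (0.0521), and at 400 µM in Col-0 that of CYP71B6 is lost without DMSO replicate 3 (0.118). CYP71B10 reached 8.97, 7.64 and 4.8 normalized counts at 200 µM in ICT1-2, against 0 and 0.97 with DMSO, and 10.9, 3.4 and 14.2 in ICT1-8098, against 0, 0 and 1.88, all below the treated Col-0 libraries (71.3 to 129), and its interaction with the line was not called.

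Among the 13 genes that fell in each comparison were CYP702A5, CYP71A20, CYP84A1, CYP90D1, CYP705A15, CYP705A4, CYP705A20, CYP705A33, CYP71B26, CYP71B37, CYP81D3, CYP704A2 and CYP709B3. CYP702A5 had 61.2, 59.6 and 36.6 normalized counts at 200 µM in ICT1-8098, against 1845, 1022 and 1058 with DMSO (-4.60), and 95.7, 78.1 and 37.6 in ICT1-2, against 704 and 500.1 (-3.16). Its treated libraries in both lines thus stood above those of Col-0 (7.25 to 12.9), as did the DMSO libraries. CYP705A15 fell by 1.003 to 1.38 on the log2 scale over the 5 comparisons, and CYP705A33 by 0.60 to 0.89. In ICT1-8098, CYP710A3 had no reads in any library at 200 µM, against 27.5, 17.2 and 30.1 with DMSO. In ICT1-2 several of these falls rest on both DMSO libraries: at 200 µM, leaving out DMSO replicate 1 or 2 took CYP71B26 to 0.108 and 0.0945 and CYP705A4 to 0.0904 and 0.0754, and the call of CYP84A1 (adjusted p = 0.0414) to 0.221 and 0.11. In Col-0 at 200 µM the call of CYP709B3 was lost without DMSO replicate 3 (0.0538).

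The interaction of line and I3C asks whether a gene's response differed from that in Col-0. At 200 µM it called 2 P450 genes higher and 2 lower for ICT1-2, out of 135 tested, against 0.335% and 0.345% of all genes. At 400 µM it called 2 higher and 1 lower for ICT1-2, against 1.35% and 0.873%, and at 200 µM it called 1 higher and none lower for ICT1-8098, against 0.146% and 0.118%. In either direction the shares of P450 genes were 2.96%, 2.22% and 0.741%, against 0.68%, 2.22% and 0.264% of all genes. For ICT1-2 at 400 µM the share of P450 genes thus equalled that of all genes. Beside these calls, 2 of 6 shoot photosynthesis markers were lower in the interaction for ICT1-2 at 200 µM, with a median of -2.25. None was called for ICT1-2 at 400 µM (median -1.47) or for ICT1-8098 (median -1.69), and their part in the P450 calls was not tested. CYP89A6 responded less in ICT1-2. At 200 µM it had 11, 19.5 and 11.2 normalized counts in ICT1-2, against 1.07 and 6.8 with DMSO, beside 228, 338 and 299.7 in Col-0, against 5.77, 12.4 and 10.5. The Col-0 treated libraries were thus over 10 times those of ICT1-2, and the difference of the log2 responses was -2.97 (SE 0.62, adjusted p = 0.0258). At 400 µM it was -3.02 (adjusted p = 0.00963). The call at 200 µM was lost without Col-0 200 µM replicate 4 (0.0651), ICT1-2 200 µM replicate 2 (0.0769) or 5 (0.0507) or ICT1-2 DMSO replicate 2 (0.183), and that at 400 µM without ICT1-2 DMSO replicate 2 (0.0973). In ICT1-8098 the gene had 31, 34.9 and 37.8 at 200 µM, against 5.83, 8.6 and 3.76 (difference -2.43, adjusted p = 0.0838). Its neighbour CYP89A5 had 1195, 1163 and 1060.2 in ICT1-2 at 200 µM, against 96.4 and 67 with DMSO.

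CYP72C1 had 173, 225 and 239 normalized counts at 200 µM in ICT1-2, against 126 and 124 with DMSO, a smaller response than in Col-0 at that dose (difference -1.27, SE 0.29, adjusted p = 0.0384). The call was lost without ICT1-2 DMSO replicate 1 (0.168) or 2 (0.125), ICT1-2 200 µM replicate 2 (0.124) or 4 (0.0678), ICT1-2 400 µM replicate 4 (0.0528), Col-0 200 µM replicate 4 (0.0989) or Col-0 DMSO replicate 4 (0.12). At 400 µM it reached 510.1, 444 and 373 in ICT1-2, next to 476, 412 and 529 in Col-0, and the interaction was not called. CYP71B2 fell in Col-0, with 163, 70.1 and 72.5 at 200 µM, against 399.6, 254 and 311 with DMSO (-1.74, adjusted p = 7.32e-05). In ICT1-2 it had 76.1 and 75.7 with DMSO, 159, 143 and 75.3 at 200 µM and 162, 213 and 200.7 at 400 µM. The DMSO level in ICT1-2 was thus already near the treated level in Col-0, and the differences of the log2 responses were 2.39 at 200 µM (SE 0.44, adjusted p = 0.0120) and 2.77 at 400 µM (adjusted p = 0.00168). The call at 200 µM was lost without ICT1-2 DMSO replicate 1 (0.0661) or 2 (0.062).

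CYP71B35 had few reads with DMSO in either line, 2.14 and 0 normalized counts in ICT1-2 and 2.5, 1.72 and 0 in ICT1-8098, against 30.5, 24.7 and 22 in Col-0. At 200 µM it had 27.9, 17 and 12.8 in ICT1-2 and 11.7, 28.1 and 14.2 in ICT1-8098, beside 3.24, 16.6 and 24.2 in Col-0. In both lines the treated libraries stood above all DMSO libraries, and in Col-0 they did not. The differences of the log2 responses were 4.55 (SE 0.92, adjusted p = 0.0216) for ICT1-2 and 4.17 (SE 0.86, adjusted p = 0.0389) for ICT1-8098 at 200 µM, and 4.76 (adjusted p = 0.00593) for ICT1-2 at 400 µM. The ICT1-2 call at 200 µM was lost without Col-0 DMSO replicate 4 (adjusted p = 0.0543), ICT1-2 200 µM replicate 2 (0.0723) or ICT1-2 DMSO replicate 2 (0.139), and that at 400 µM without ICT1-2 DMSO replicate 2 (0.0604). The ICT1-8098 call was lost without ICT1-8098 200 µM replicate 3 (0.112), without ICT1-8098 DMSO replicate 4 (0.0613) or 5 (0.111), without Col-0 200 µM replicate 4 (0.0554), without Col-0 DMSO replicate 3 (0.0545), 4 (0.0862) or 5 (0.0815), and without ICT1-2 200 µM replicate 4 (0.0564) or 400 µM replicate 4 (0.051).

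**Figure D3:**
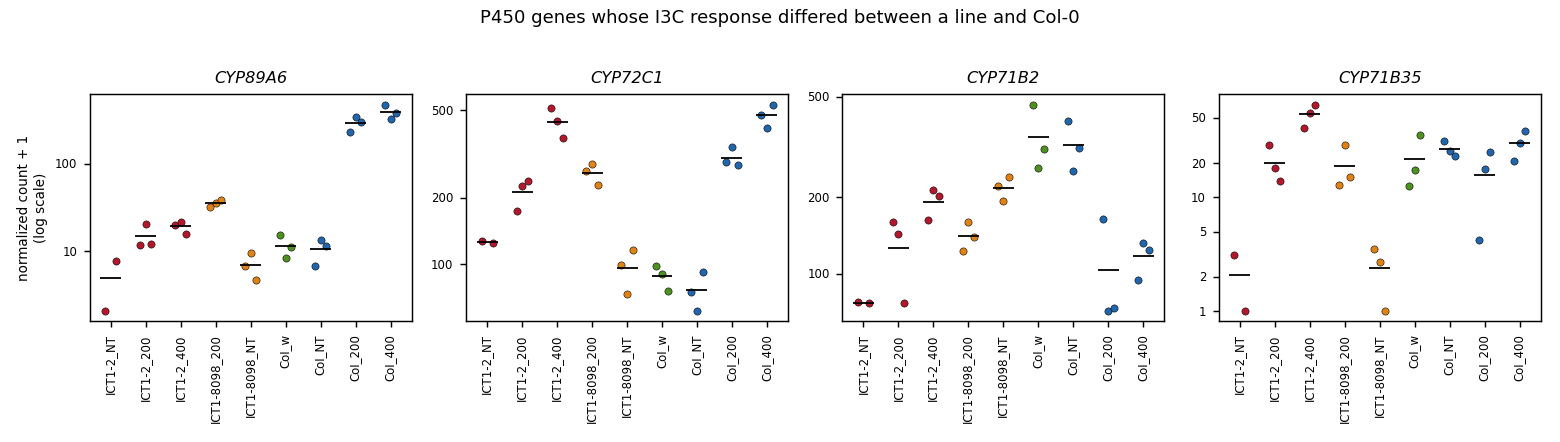
Normalized count + 1 (log y axis) in every library of the 9 groups (x axis) for the 4 P450 genes whose I3C response differed between a line and Col-0; points are libraries, black bars group means, NT is DMSO, w is wounding and 200 and 400 are µM of I3C. CYP89A6 reaches 228 to 338 at 200 µM in Col-0 and 11 to 19.5 in ICT1-2, and CYP71B35 is at 2.14 or less with DMSO in ICT1-2 and at 22 to 30.5 with DMSO in Col-0.

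Wounded Col-0 roots were harvested at 8 h and DMSO-treated roots at 2 h, so time and wounding cannot be told apart below. Of 135 P450 genes tested, 8 were called higher and 1 lower in wounded Col-0 roots, which is 6.67%, against 2.47% of all genes (1.8% higher and 0.67% lower). The median log2 fold change was -0.0032 for the P450 genes and -0.0078 over all genes. Of the 39 P450 genes left out by the rule, 29 were tested and 9 were higher.

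The largest difference between wounded and DMSO-treated roots was that of CYP710A4 (chr2:12388168-12389891), of the sterol C22-desaturase subfamily. It had 123, 185 and 97.9 normalized counts in wounded roots, against 4.94, 0 and 4.39 with DMSO. No other group came close: the highest of the remaining libraries had 25.8, in ICT1-8098 with DMSO. The ratio of means was 43.5 (log2 fold change 5.37, SE 0.81, adjusted p = 0.000216, and 4.54 without DMSO replicate 4). CYP710A1 of the same subfamily, with the strong I3C response, had 94, 72.1 and 82.1 in wounded roots, against 43.7, 37.1 and 43.9, and was not called.

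CYP705A12 (chr5:17023502-17025361) had 357, 373 and 375 normalized counts in wounded roots, against 45.3, 20.9 and 23.7 with DMSO (3.66, SE 0.53, adjusted p = 0.000124). CYP705A30 had 453, 568 and 430.0, against 47.8, 85 and 60.6 (2.92, SE 0.27, adjusted p = 5.88e-07). CYP81D1 had 479, 484 and 518, against 129, 54.1 and 38.6 (2.91, SE 0.41, adjusted p = 0.00011). The wounded libraries of these 3 genes lay close together, and the DMSO libraries lay several fold lower. Over the 5 I3C comparisons CYP705A30 was called lower in 4 and CYP81D1 in 2, and none of the 3 was called higher.

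CYP71A20 and CYP71A19 are neighbours on chromosome 4. CYP71A20 had 970.5, 1156 and 1287 normalized counts in wounded roots, against 339, 134 and 100.1 with DMSO (2.76, SE 0.46, adjusted p = 0.00072). CYP71A19 had 596, 495 and 625, against 198, 104 and 112 (2.1, SE 0.25, adjusted p = 9.53e-06). CYP71A20 thus rose in wounded roots and fell under I3C, while CYP71A19 had 154, 116 and 106 at 200 µM, overlapping the DMSO libraries. Both comparisons share the DMSO libraries.

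The remaining wound calls were weak. CYP708A3 had 72.7, 75.4 and 122 normalized counts, against 17.3, 22.4 and 15.8 (adjusted p = 0.0466, 0.199 without wounded replicate 4 and 0.187 with the replicate block). CYP97B3 had 387, 321 and 353, against 259.5, 210.2 and 263 (0.54, adjusted p = 0.00922, but 0.0526 without wounded replicate 1, 0.103 without DMSO replicate 4 and 0.148 with only these groups). CYP81D8 was lower, with 70.0, 70.4 and 99.8, against 120.3, 224 and 201.1 (-1.14, adjusted p = 0.0408, 0.243 without DMSO replicate 4 and 0.152 with voom). CYP84A1 had 863, 1035 and 1158 in wounded roots, against 365, 291 and 268, without overlap, and did not pass the threshold (1.72, adjusted p = 0.0566).

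**Figure D4:**
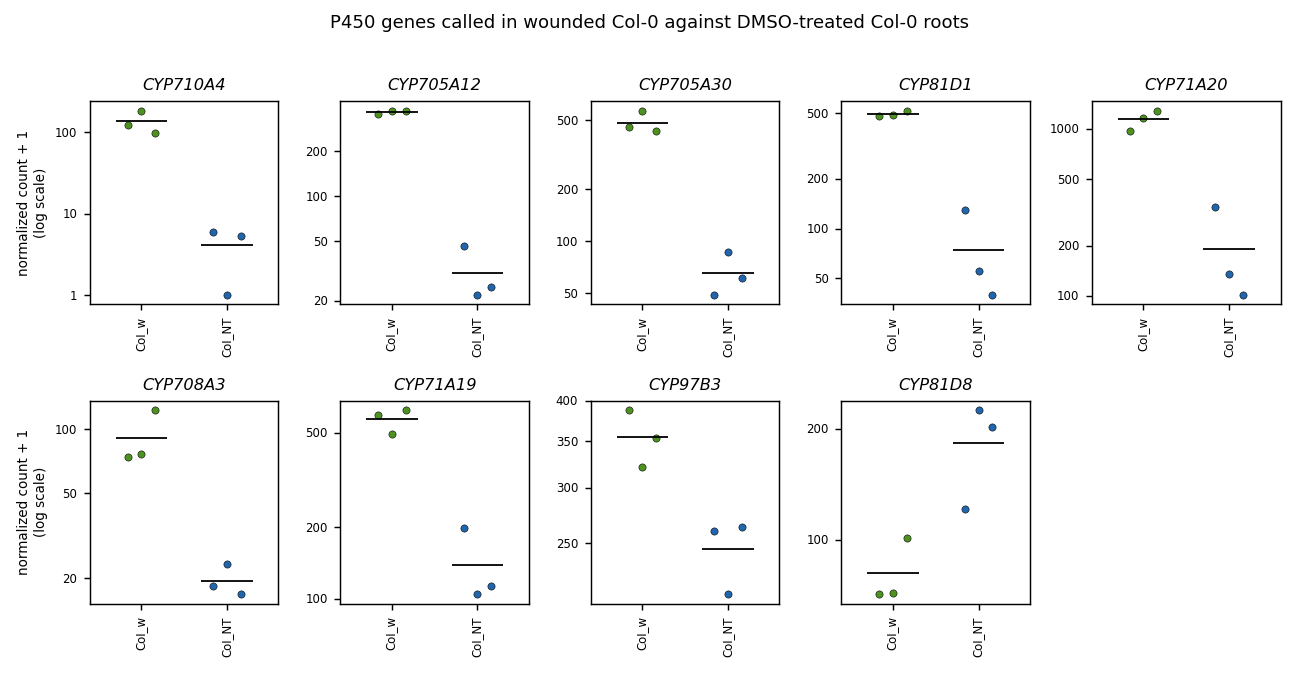
Normalized count + 1 (log y axis) in the 3 wounded (Col_w) and 3 DMSO (Col_NT) libraries of Col-0 roots for the 9 P450 genes called in that comparison; points are libraries and black bars group means. In 8 panels the wounded libraries lie above the DMSO libraries, from CYP710A4 (ratio of means 43.5) to CYP97B3, and in the panel of CYP81D8 they lie below.

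The lines also differed from Col-0 without I3C. With DMSO, 19 P450 genes were higher and 22 lower in ICT1-2 than in Col-0 (30.4%, against 18.2% of all genes, 9.5% higher and 8.66% lower), and 13 were higher and 14 lower in ICT1-8098 (20%, against 12.2%, 6.01% higher and 6.17% lower). Under scaling by total reads the ICT1-2 split was 20 higher and 13 lower. The medians were -0.13 and 0.04, against -0.01 and -0.02 over all genes. Both comparisons share the Col-0 DMSO libraries. The shoot photosynthesis markers summed to 887 to 1193 in ICT1-8098, against 1546 to 3915 in Col-0, with 3 of 6 lower and a median log2 fold change of -1.21. In ICT1-2 they summed to 2217 to 2222 with none called, and 2 of 10 root markers were lower in ICT1-2 and 1 of 10 in ICT1-8098. The part of these markers in the P450 results was not tested. The ICT1-2 count fell to 18 and 22 without DMSO replicates 1 and 2 of that line, and to 24 and 26 without Col-0 DMSO replicates 5 and 4. CYP705A had 6 higher and 2 lower in ICT1-2 and 6 higher and 1 lower in ICT1-8098, while CYP71B had none higher and 7 lower in ICT1-2 and none higher and 4 lower in ICT1-8098.

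Some genes separated the lines from Col-0 in every library, whatever the treatment. In 6 P450 genes all 14 libraries of the lines were above all 12 Col-0 libraries (4.44% of those tested, against 2.23% of all genes), and in 5 they were below (3.7%, against 1.63%). CYP705A13 had 92.9 to 302 normalized counts in the lines (median 154), against 0 to 6.59 in Col-0 (median 0). CYP705A8 had 263 to 572 (median 336), against 0 to 10.6 (median 3.71). CYP705A28 had 55.4 to 241 (median 84.8), against 0 to 17.7 (median 3.53). All 3 were thus near zero in Col-0 and well expressed in both lines.

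With DMSO alone, CYP705A8 had 413 and 521 normalized counts in ICT1-2 and 572, 428 and 488 in ICT1-8098, against 3.3, 5.41 and 7.03 in Col-0 (log2 fold change 6.26, SE 0.46, adjusted p = 5.78e-10 for ICT1-2, and 6.35, SE 0.41, adjusted p = 5.48e-11 for ICT1-8098). CYP705A13 had 215 and 239 in ICT1-2 and 302, 198 and 206 in ICT1-8098, against 6.59, 0 and 0 in Col-0 (6.86 and 6.88, and 7.83 and 7.86 without Col-0 DMSO replicate 3). CYP705A13 passed the filter only through the lines, so its test is not given as support. CYP705A28 had 219.7 and 233 in ICT1-2 and 241, 201.2 and 181 in ICT1-8098, against 1.65, 9.27 and 0.88 (5.94, adjusted p = 4.65e-06, and 5.80, adjusted p = 1.1e-06, and 6.67 and 6.54 without Col-0 DMSO replicate 4). For these 3 genes the libraries of the lines overlapped each other, and Col-0 held few reads. The shared-word share was 8.75% for CYP705A8, 2.28% for CYP705A13 and 8.71% for CYP705A28, and 10.4% for CYP705A9, the neighbour of CYP705A8.

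CYP705A8 and CYP705A9 are neighbours on chromosome 2 (chr2:11523287-11525140 and chr2:11526168-11527854). CYP705A9 had 222 to 436 normalized counts in the lines (median 290.1), against 30.2 to 114 in Col-0 (median 59.3). Its log2 fold changes with DMSO were 2.25 in ICT1-2 and 1.94 in ICT1-8098 (adjusted p = 3.18e-05 and 4.78e-05). CYP705A28 stands in an array with CYP705A30, CYP705A32 and CYP705A33 (chr3:7334179-7347210). CYP71A28 had 32.1 to 80.8 in the lines (median 57.1), against 0 to 3.63 in Col-0 (median 0.54), and CYP706A7 had 26.2 to 76.8 (median 57.9), against 1.21 to 14.7 (median 5.94).

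Of the genes below Col-0 in all line libraries, CYP71A15 and CYP76C6 were nearly silent in the lines. CYP71A15 had 3 reads over all 14 line libraries (0 to 2.55 normalized counts) and 344 reads over the 12 Col-0 libraries (13.9 to 44.8). CYP76C6 had 1 read in the lines and 156 in Col-0 (3.63 to 19.6), and its shared-word share was 18.2%. CYP709B2 had 0 to 63.6 in the lines (median 25.1), against 71.7 to 970 in Col-0 (median 277). In Col-0 it had 71.7, 114 and 132 with DMSO, 568, 459.6 and 311 at 200 µM and 640.4, 897 and 969.5 at 400 µM, while in ICT1-2 it had 19.3 and 30.1 with DMSO, 11, 22.1 and 28 at 200 µM and 52.5, 63.6 and 16.5 at 400 µM. In ICT1-8098 it had 48.6, 62.1 and 42.5 at 200 µM, against 0, 16.3 and 15 with DMSO (2.98, adjusted p = 0.00315, but 0.0661 with only these groups). The log2 responses to 200 µM in Col-0 and ICT1-2 were 2.07 and -0.33, and no interaction with the line was called (ICT1-2 differences -2.39, adjusted p = 0.364, at 200 µM and -2.35, adjusted p = 0.268, at 400 µM; ICT1-8098 difference 0.91, adjusted p = 0.792). CYP706A5 had 0 to 19.5 in the lines, against 22.2 to 72.7, and CYP96A4 had 0 to 3.88, against 4.83 to 45.7.

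**Figure D5:**
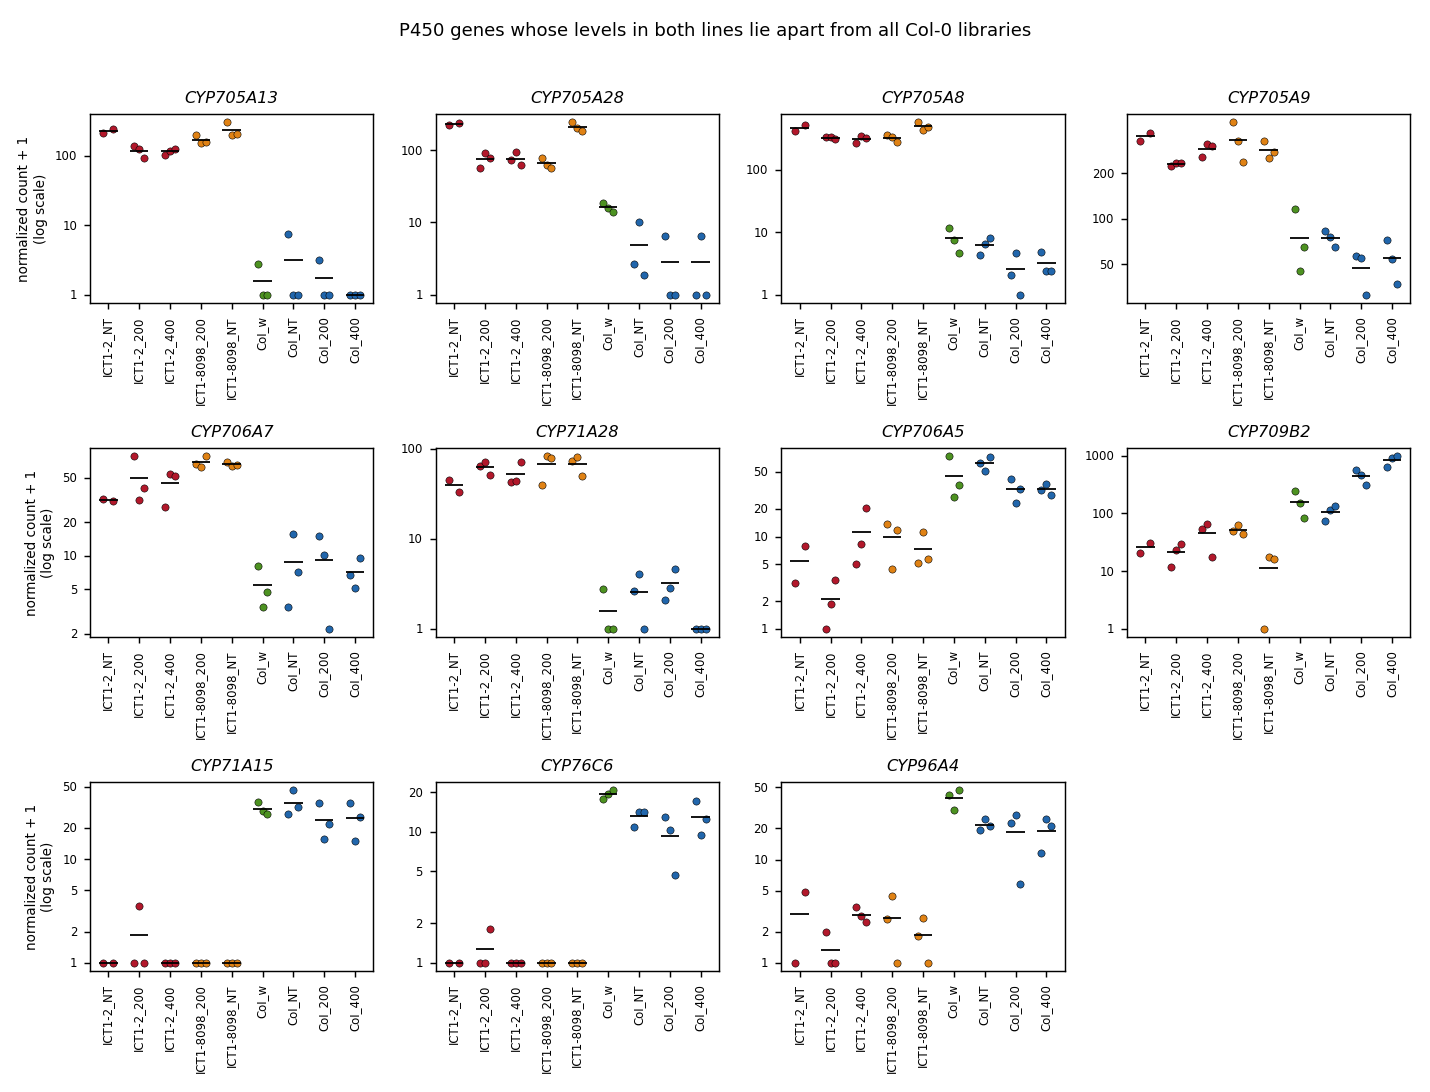
Normalized count + 1 (log y axis) in every library of the 9 groups (x axis) for the 11 P450 genes whose 14 libraries of the lines ICT1-2 and ICT1-8098 all lie above or all lie below the 12 Col-0 libraries; points are libraries and black bars group means. CYP705A13 lies at 92.9 to 302 in the lines and at 6.59 or less in Col-0, and CYP71A15 lies at 2.55 or less in the lines and at 13.9 or more in Col-0.

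CYP71B34, the neighbour of CYP71B35, was also lower in the lines with DMSO, with 48.2 and 57.3 normalized counts in ICT1-2 and 145, 94.6 and 119 in ICT1-8098, against 410.3, 451 and 457 in Col-0. The groups lay apart, with log2 fold changes of -3.04 (adjusted p = 5.36e-05) and -1.89 (adjusted p = 0.00305). CYP702A5 was higher in ICT1-8098, with 1845, 1022 and 1058, against 317, 298 and 315 in Col-0 (2.02, adjusted p = 0.00233). CYP81D8 was lower in ICT1-8098 (-1.85, adjusted p = 0.000107) and in ICT1-2 (-1.36, adjusted p = 0.00618, and 0.0674 without ICT1-2 DMSO replicate 2), and CYP89A5 was higher in both (2.20, adjusted p = 9.76e-07, and 1.97, adjusted p = 2.73e-05).

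P450 enzymes depend on electron donors and on heme, and genes for both were counted as lists chosen for that role. Of 12 redox partner genes tested, 3 rose and 1 fell at 200 µM in Col-0 (33.3%, near the 28.9% of all genes), with a median log2 fold change of -0.04. ATR2, an NADPH-cytochrome P450 reductase, had 4978, 6695 and 5744 normalized counts at 200 µM, against 1331, 1558 and 1613 with DMSO (1.95, SE 0.19, adjusted p = 3.98e-08). CB5-C, a cytochrome b5, had 278, 131 and 93.1, against 831, 809.9 and 887 (-2.48, SE 0.28, adjusted p = 2.65e-07). Treated and DMSO libraries lay apart in both, in opposite directions. ATR2 also rose at 400 µM in Col-0 and in the lines, with log2 fold changes of 2.40 at 400 µM in Col-0, 2.37 and 3.03 at 200 and 400 µM in ICT1-2 and 1.48 in ICT1-8098. With wounding no redox partner was called.

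Of 18 genes of heme synthesis and breakdown, 16 were tested, and 3 rose and none fell at 200 µM in Col-0 (18.8%, below the 28.9% of all genes). HEMA2, a glutamyl-tRNA reductase, had 1429, 2318 and 1964 normalized counts, against 401, 439.7 and 467 (2.1, SE 0.21, adjusted p = 3.99e-08), and GSA1, the next enzyme of the pathway, had a log2 fold change of 0.82 (adjusted p = 0.000134). The counts were 5 higher and 2 lower at 400 µM in Col-0 (43.8%, against 35.8% of all genes), 3 higher at 200 µM in ICT1-2 (18.8%, against 18.6%), 4 higher at 400 µM in ICT1-2 (25%, against 31.4%) and 5 higher in ICT1-8098 (31.2%, against 22.1%). Among the 29 tested P450 genes that the rule left out, 5 rose and 7 fell at 200 µM in Col-0, beside 28.9% of all genes called in either direction.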

How the data were processed

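Root mRNA libraries (TruSeq v2 kit, which does not mark strand) were compared between treatments and lines. Reads were aligned with TopHat2 2.1.0, counted with HTSeq 0.6.1 and normalized with DESeq2 1.18.1 on TAIR10, per the submitters' processing notes. The deposited table holds normalized counts per library, packed into 1 cell per group, and the authors' group mean signal beside them. Multiplied back by the library's step, 99.985% to 100% of values per library were whole numbers of reads within 0.1, and 99.969% of loci had the same start as in the TAIR10.1 annotation, 195 of 195 for the P450 genes.

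From these values, log2(normalized count + 1) was fitted with limma 3.58.1 (R 4.3.3, moderated with a trend) in 1 model of 26 libraries. Genes with at least 10 normalized counts in 3 libraries were kept, 21180 in all, p-values were adjusted over them by Benjamini-Hochberg, and calls used 0.05. Differences in response between a line and Col-0 were interaction terms. The added 1 makes the printed log2 fold changes of low genes too small. The script was tested on simulated data. Tables and figures used Python 3.11.15, numpy 2.4.6, pandas 2.3.3, scipy 1.17.1 and matplotlib 3.10.9. The P450 genes and the gene lists were chosen with earlier results of these data known, and the lists (redox partners, heme, root and shoot markers) and motifs are described by counts. Genes named are the 10 largest rises and falls at 200 µM in Col-0, 6 each at 400 µM and with wounding, 4 each elsewhere, the 2 highest per clan and genes with a known role. Alternatives changed the filter, scaling, pseudocount, samples fitted, replicate block and libraries. 1 library of 27 has no values in the table and was not used here, and totals of reads per library limit the precision by counting error.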

Additional observations from a re-analysis of the deposited data

Results flagged for a closer look

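The interaction of line and I3C was past the threshold for 4 P450 genes, by limma with Benjamini-Hochberg adjusted p over all genes, and these are given again because a response differed between a line and Col-0. At 200 µM in ICT1-2 the log2 response differed from that in Col-0 by -2.97 for CYP89A6, -1.27 for CYP72C1, 2.39 for CYP71B2 and 4.55 for CYP71B35. With only the groups compared in the fit, the adjusted p became 0.155, 0.135, 0.115 and 0.115, and with voom on the recovered reads 0.176, 0.108, 0.0563 and 0.0733. The call of CYP89A6 was also lost with a pseudocount of 0.5 (0.0503), that of CYP72C1 with total-read scaling (0.0706) and that of CYP71B35 with the replicate block (0.0637). At 400 µM in ICT1-2 the share of P450 genes called, 2.22%, equalled that of all genes. The differences there were -3.02 for CYP89A6, 2.77 for CYP71B2 and 4.76 for CYP71B35. With voom that of CYP89A6 missed the threshold (0.0659), and with the replicate block that of CYP71B35 did (0.0753). At 200 µM in ICT1-8098 the difference was 4.17 for CYP71B35, and the adjusted p was 0.0574 without the filter on low values, 0.235 with only the groups compared, 0.14 with the replicate block and 0.0604 with voom. CYP71B2 at 400 µM was the 1 of these calls kept under every alternative run.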

How the results depend on the processing

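Without 1 library, the number of called P450 genes ran from 51 to 63 for 200 µM I3C and from 58 to 75 for 400 µM in Col-0, 0 to 3 for 400 over 200 µM, 7 to 12 for wounding, 18 to 43 for ICT1-2 and 24 to 32 for ICT1-8098 over Col-0 with DMSO, 24 to 43 and 31 to 49 for 200 and 400 µM in ICT1-2, 41 to 54 for ICT1-8098 at 200 µM, and 0 to 6, 1 to 5 and 0 to 4 for the interactions (ICT1-2 at 200 and 400 µM, ICT1-8098 at 200 µM). With only the groups compared the interactions had 0, 6 and 0 calls, against 4, 3 and 1, with voom on the recovered reads (chosen after seeing the data) 0 at 200 µM in both lines, with a pseudocount of 5 there were 5 for ICT1-2 at 400 µM and 2 for ICT1-8098, and without a filter or with a minimum of 5 CPM 0 for ICT1-8098. Calls kept under every alternative that tested the gene were 40 of 60 at 200 µM and 46 of 71 at 400 µM in Col-0, 6 of 9 with wounding, 15 of 41 and 22 of 27 for the lines with DMSO, 18 of 41 and 24 of 46 in ICT1-2 and 36 of 51 in ICT1-8098, and of these 32, 35, 6, 6, 15, 16, 21 and 31 were tested under all alternatives run. 1 call turned direction: CYP97B3 at 400 µM in ICT1-2 (log2 fold change 0.39) was -0.050 with total-read scaling and -0.052 with voom, not called in either. With voom the split at 200 µM in Col-0 was 22 higher and 47 lower. The replicate block gave 58 calls at 200 µM, 68 at 400 µM, 10 with wounding, 29 and 30 for the lines, 32, 32 and 42 for I3C in the lines and 5, 2 and 1 for the interactions. Replicate numbers 1, 4 and 5 are shared by the 3 libraries at 400 and 200 µM in Col-0, with correlations of deviations of 0.299, 0.0384 and 0.103. With 3 libraries per group these values cannot decide whether the numbers pair the samples. The other groups share fewer numbers. The planned fits with edgeR and DESeq2 were not run because the deposited values are normalized. Depth limits what is said of genes with few reads, such as CYP710A3, CYP76C2 and CYP71A15.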
